A study of Mus musculus with 4 samples.

Results

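Expression of epithelial keratin genes and of the mesothelin gene Msln was followed in mouse F9 embryonal carcinoma cells, a line of undifferentiated tumour stem cells that can form endoderm in culture. The genes were Krt7, Krt8, Krt17, Krt18, Krt19, Krt42 and Msln, and every probe set whose annotated symbol was exactly 1 of these 7 was taken, which gave 11 probe sets of 45037 tested. The members were chosen with the differences between the groups of these same arrays known, so their differences are given as a description and support nothing beyond it. The series holds 4 arrays. Both groups were F9 cells infected with a pLKO.1 lentivirus and selected with puromycin as stable lines: 2 arrays of cells carrying a short hairpin RNA against Phf19 (shPhf19) and 2 of cells carrying the control vector (shVector). How many hairpin sequences were used, and whether the 2 replicates of a group came from separate infections, was not stated in the labels. The errors therefore measure the spread between these arrays, which limma draws toward that of other probe sets of like level. Phf19 is a Polycomb-like protein that binds Polycomb repressive complex 2.

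Keratins are the intermediate filament proteins of epithelial cells. A filament is built from pairs of 1 type I and 1 type II keratin, so that neither type polymerises alone. Krt8 (type II) and Krt18 (type I) form the pair of simple epithelia and are the first keratins of the mouse embryo, present in trophectoderm and extraembryonic endoderm. Krt7 (type II) and Krt19 (type I) accompany them in ducts and other simple epithelia. Krt17 (type I) belongs to skin appendages and is induced in wounded epidermis, and Krt42 is a type I keratin gene of mouse that is related to Krt17. Msln encodes mesothelin, a lipid-anchored surface glycoprotein of the mesothelium.

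Values are log2 expression as deposited. The 4 arrays had medians of 5.75 to 5.77 and Pearson's r between the 2 arrays of a group, over all probe sets, was 0.9974 for shVector and 0.9984 for shPhf19. Phf19 itself was lower by 0.98 ± 0.10 (SE, log2; limma adjusted p = 0.0108) with probe set 1427920_at, whereas its second probe set, 1431857_at, was at -0.06 ± 0.12. All of 10 embryonal carcinoma markers, such as Pou5f1 and Sox2, lay above the median of all probe sets, and their mean level was 12.36 and 12.45 in shVector and 12.43 on each shPhf19 array. None of these 10 passed the limma test at an adjusted p under 0.05, with 1 lower and 3 higher at an unadjusted p under 0.05. The 2 with the smallest p were Nanog at -0.26 ± 0.05 (adjusted p = 0.0923) and Fgf4 at 0.19 ± 0.06 (adjusted p = 0.24). Beside this and the other lists below, 5708 of all 45037 probe sets had an unadjusted limma p under 0.05, counting both directions. That count takes in dim probe sets, whereas a list counts each gene by its brightest probe set and by direction.

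Krt17, Msln, Krt8 and Krt42 each had a probe set that passed as lower in shPhf19 cells, by 4.01-fold, 2.90-fold, 1.83-fold to 2.39-fold and 1.80-fold, while Krt18, Krt19 and Krt7 had none. Both shPhf19 arrays lay below both shVector arrays for 11 of the 11 probe sets, an arrangement that 21% of all probe sets showed. A total of 6 probe sets of these 4 genes passed the test across all probe sets in the lower direction and none in the higher direction, while 0.582% of all probe sets passed as lower and 0.83% as higher. The median difference of the 11 was -0.85 on the log2 scale, against -0.01 for all probe sets. Krt8 enters these 11 with 3 probe sets, and Krt17 and Krt42 with 2 each. With each of the 7 genes counted by its brightest probe set, as in the lists below, Krt8, Krt17 and Msln passed. On that basis the median difference was -0.25, against -0.003 for all genes, of which 0.863% passed as lower. Since the members were picked on this comparison, nothing is read from these counts. In RNA of whole cultures, fewer cells that express a gene and less RNA per cell cannot be told apart.

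**Figure D1:**
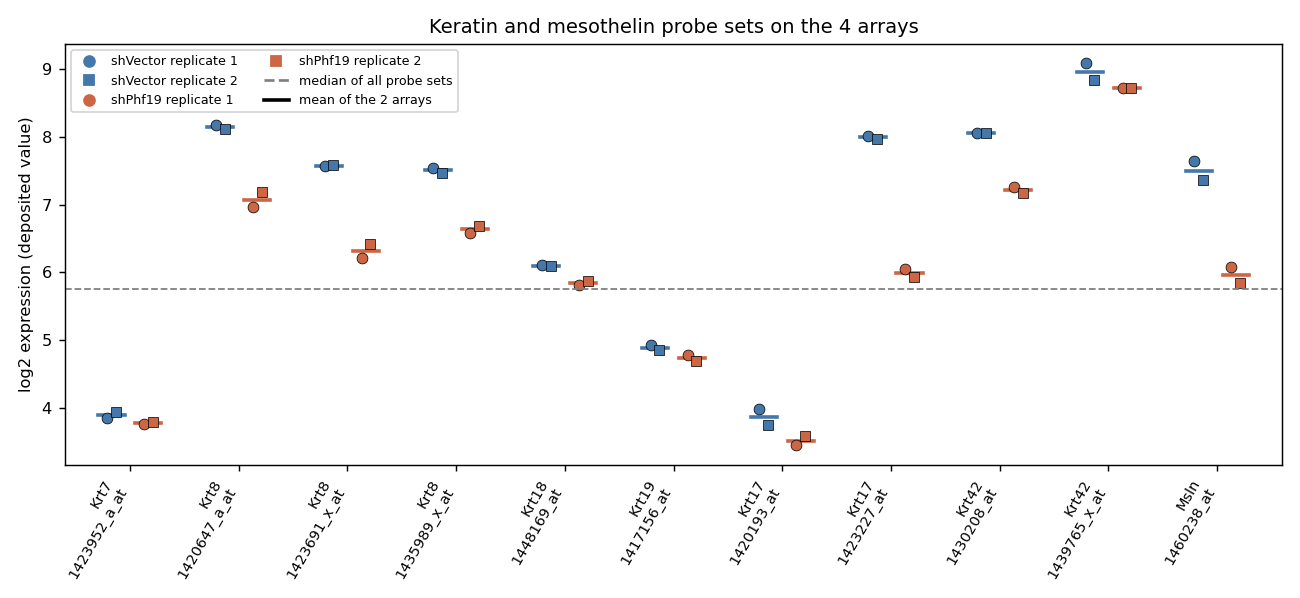
Log2 expression (vertical axis) of the 11 keratin and mesothelin probe sets on each of the 4 arrays. Circles and squares are replicates 1 and 2, bars are means of 2 arrays, and the dashed line is the median of all probe sets. The shPhf19 arrays sit below the shVector arrays in each probe set, widely so for Krt8, Krt17, Msln and probe set 1430208_at of Krt42.

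Krt17 had the largest difference of the 7 genes. Its probe set 1423227_at read 8.01 and 7.97 in the shVector replicates and 6.06 and 5.93 in the shPhf19 replicates. The nearest arrays of the 2 groups were 1.92 apart, and the arrays within a group differed by 0.04 (shVector) and 0.13 (shPhf19). The difference was -2.00 ± 0.09 (SE), with a 95% interval of -2.22 to -1.78, which left 25% of the control signal. Only 1 of the 45037 probe sets tested had a lower difference.

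The other Krt17 probe set, 1420193_at, was dim. It read 3.98 and 3.76 in shVector and 3.45 and 3.59 in shPhf19, in the lowest 16.3% of all probe sets by mean level. Its difference was -0.35 ± 0.11 (95% interval -0.62 to -0.08), which did not pass and whose interval did not overlap that of 1423227_at. A further probe set, 1427841_at, is annotated to Krt17 and Krt14 together and is no member. It read 5.36 and 5.37 in shVector and 5.35 and 5.35 in shPhf19, a difference of -0.02 ± 0.09. Which stretches of the transcripts the 3 probe sets cover was not analysed here.

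Krt42 gave unequal differences with its 2 probe sets. Probe set 1430208_at read 8.06 and 8.06 in shVector against 7.26 and 7.17 in shPhf19. This was 1.80-fold lower (log2 difference -0.85 ± 0.08, 95% interval -1.05 to -0.64), and the groups were 0.80 apart at their nearest arrays. The brighter probe set 1439765_x_at read 9.09 and 8.83 in shVector and 8.71 and 8.71 in shPhf19. Its difference of -0.24 ± 0.10 (95% interval -0.49 to -0.003) did not pass, and the 2 shVector arrays were themselves 0.26 apart. The suffix x_at marks a probe set whose probes can also hybridise to related transcripts, and hybridisation between Krt17, Krt42 and other type I keratins was not analysed here.

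Krt8, the type II keratin of simple epithelium, was lower with all 3 of its probe sets. The brightest, 1420647_a_at, read 8.17 and 8.12 in shVector and 6.96 and 7.19 in shPhf19, a difference of -1.07 ± 0.10 (95% interval -1.32 to -0.82). Probe set 1423691_x_at read 7.57 and 7.58 in shVector and 6.21 and 6.42 in shPhf19, a difference of -1.26 ± 0.10. Probe set 1435989_x_at read 7.54 and 7.47 in shVector and 6.58 and 6.69 in shPhf19, a difference of -0.87 ± 0.09. The 3 folds were 2.10, 2.39 and 1.83, and in each probe set shPhf19 replicate 1 was the lowest array, by 0.23, 0.21 and 0.11 below shPhf19 replicate 2. For Krt17 probe set 1423227_at, Msln and Krt42 probe set 1430208_at the order of the shPhf19 replicates was the opposite.

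Krt18, the type I partner of Krt8, differed far less. Its 1 probe set, 1448169_at, read 6.11 and 6.09 in shVector and 5.82 and 5.87 in shPhf19, so the groups did not overlap and lay 0.22 apart. The difference was -0.25 ± 0.09 (95% interval -0.47 to -0.04), or 1.19-fold lower, and did not pass over all probe sets. Its interval overlapped none of the 3 Krt8 intervals, of which the nearest, of 1435989_x_at, ran from -1.09 to -0.65. The probe sets of Krt17 and those of Krt42 also had intervals apart within the same gene, so 1 probe set need not give the change of Krt18. Krt18 lay close to the middle of the array, at the 52.9th percentile of mean level, and the Krt8 probe sets at the 64th to 70th.

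The other simple epithelial keratins were dim. Krt19 (1417156_at) read 4.93 and 4.85 in shVector and 4.78 and 4.70 in shPhf19, a difference of -0.15 ± 0.10 with a 95% interval of -0.38 to 0.08. Krt7 (1423952_a_at) read 3.85 and 3.94 in shVector and 3.76 and 3.80 in shPhf19, a difference of -0.11 ± 0.09 with a 95% interval of -0.33 to 0.11. Both intervals include 0, and both probe sets lay under the median of all probe sets, at the 35.9th and 18.9th percentiles. The deposited table has no detection calls, so whether these 2 transcripts were above background is not known, and a difference in a dim probe set can be understated.

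Msln was lower by 2.90-fold. Its probe set 1460238_at read 7.64 and 7.36 in shVector and 6.08 and 5.85 in shPhf19. The shVector arrays differed by 0.28 and the shPhf19 arrays by 0.24, the widest spread of the shPhf19 group among the 11 probe sets, while the groups were 1.28 apart at their nearest arrays. The log2 difference was -1.54 ± 0.13 (SE), with a 95% interval of -1.86 to -1.22, the tenth lowest of all probe sets.

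**Figure D2:**
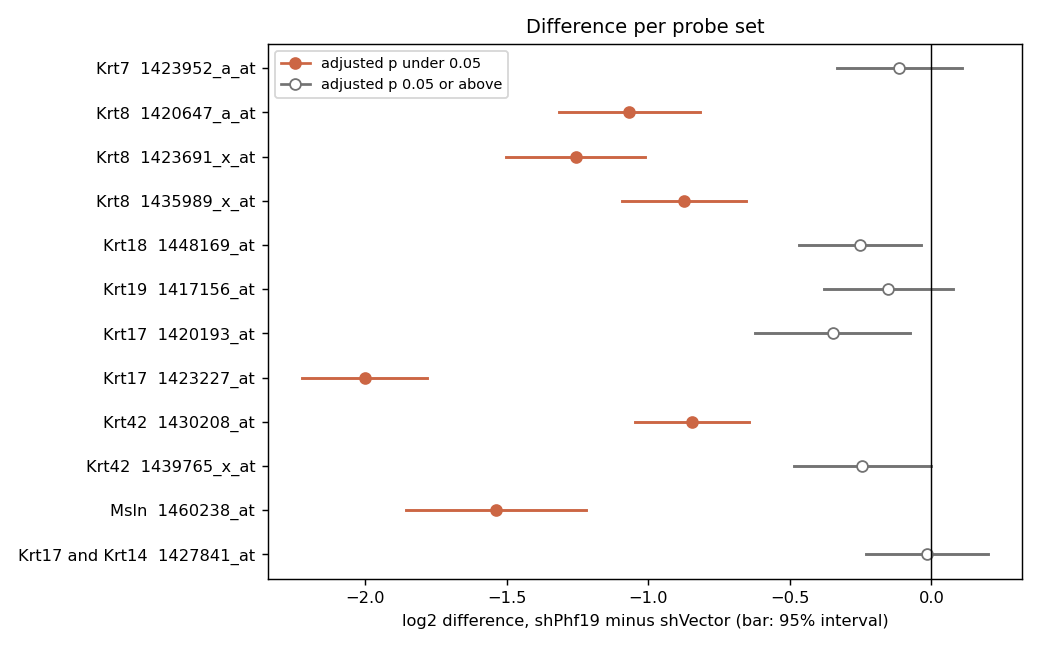
Log2 difference (shPhf19 minus shVector) of each keratin and mesothelin probe set, with limma's 95% interval as a bar, and of the probe set shared by Krt17 and Krt14. Filled points had an adjusted p under 0.05 over all 45037 probe sets. The 3 Krt8 intervals lie apart from that of Krt18, and the 2 probe sets of Krt17 and of Krt42 differ from each other.

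The genes lie in 3 places of the genome. RefSeq (assembly GRCm38.p6) puts Krt7, Krt8 and Krt18 on chromosome 15, where Krt8 and Krt18 are neighbours among genes with a probe set of their own, Krt17, Krt19 and Krt42 on chromosome 11, where Krt17 and Krt42 are neighbours, and Msln on chromosome 17. The 3 nearest measured genes on either side of each member, a set picked after the values were seen, comprised 26 other genes, of which 12 were keratins. None of the 26 passed the limma test, with 4 lower and 1 higher at an unadjusted p under 0.05, and their median difference was -0.06. The 4 lower were Chtf18 (-0.45 ± 0.09), Gng13 (-0.42 ± 0.09) and Antkmt (-0.26 ± 0.08) near Msln, and Hap1 (-0.25 ± 0.10) near Krt17 and Krt42. The 1 higher was Nr4a1 (0.16 ± 0.06), near Krt7. Krt16 and Krt14, on the other side of Krt17 from Krt42, were at -0.07 ± 0.11 and 0.03 ± 0.11. Krt78, on the other side of Krt8 from Krt18, was at -0.03 ± 0.11, and Eif4b, a translation factor gene beyond Krt18, was at -0.05 ± 0.05.

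RefSeq promoter windows, from 250 bases before to 50 bases after the annotated start, were matched for 4 of the 7 genes (Krt7, Krt8, Krt18 and Krt42). They are shown for the neighbouring pair Krt8 and Krt18, whose differences were unequal, and for Krt42. The windows (GRCm38.p6) are chr15:102004293-102004592 on the minus strand for Krt8, chr15:102027966-102028265 on the plus strand for Krt18 and chr11:100269902-100270201 on the minus strand for Krt42, each printed 5′ to 3′ along the gene. Capitals mark matches to the motifs searched.
Krt8: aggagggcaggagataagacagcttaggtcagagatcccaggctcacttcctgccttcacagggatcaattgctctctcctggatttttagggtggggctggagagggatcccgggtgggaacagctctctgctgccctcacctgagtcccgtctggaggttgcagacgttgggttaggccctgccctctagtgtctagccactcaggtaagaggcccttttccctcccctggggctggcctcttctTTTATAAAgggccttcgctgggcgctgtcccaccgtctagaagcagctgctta
Krt18: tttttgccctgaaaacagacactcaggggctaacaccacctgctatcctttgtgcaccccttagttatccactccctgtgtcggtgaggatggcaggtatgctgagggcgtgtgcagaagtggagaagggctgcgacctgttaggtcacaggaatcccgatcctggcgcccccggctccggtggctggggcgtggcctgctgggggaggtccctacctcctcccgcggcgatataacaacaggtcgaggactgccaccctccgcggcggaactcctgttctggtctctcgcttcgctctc
Krt42: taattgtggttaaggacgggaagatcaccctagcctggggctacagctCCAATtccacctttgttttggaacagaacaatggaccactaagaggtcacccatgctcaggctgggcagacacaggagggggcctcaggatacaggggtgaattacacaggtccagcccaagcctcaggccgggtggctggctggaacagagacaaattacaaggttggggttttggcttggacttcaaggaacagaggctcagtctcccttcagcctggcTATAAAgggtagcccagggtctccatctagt
A set of 6 motifs was searched on both strands: the TATA box TATAAA, the GC box GGGCGG of Sp1-type factors, the AP-1 site TGANTCA, the Ets site CCGGAAG, the core of a Gli site TGGGTGG and the CCAAT box. Krt8 and Krt42 held TATAAA, which 13.6% of 32851 RefSeq promoter windows hold. In Krt8 it began 1 base before the annotated start and overlapped a match on the opposite strand. In Krt42 it began at base 20 after the start. Whether these matches serve as TATA boxes, and whether F9 cells use the annotated starts on which the windows rest, was not tested. Krt42 also held CCAAT, as did 37.4% of windows, and Krt7 held GGGCGG at 4 places, a motif present in 35.7%. Krt18 held none of the 6, and no member window held the AP-1, Ets or Gli letters, which 7.81%, 8.86% and 9.30% of windows hold. Sites outside these windows, introns included, were not searched.

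The windows also differed in CpG dinucleotides. There were 6 in Krt8 and 2 in Krt42, 17 in Krt18 and 21 in Krt7, against a median of 7 over all 32851 windows. The 2 genes with a passing probe set thus had fewer CpGs than the 2 without, a description of 4 genes to which no test was applied. Krt42 stands among the former only by its dimmer probe set 1430208_at. Its brighter probe set, at -0.24, did not pass, and Krt18 was at -0.25. Krt7 was dim, at the 18.9th percentile of mean level.

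The other keratins did not pass the test. Of 42 further keratin genes measured, each by its probe set with the highest mean, none passed the limma test in either direction, with 1 lower and 2 higher at an unadjusted p under 0.05. Over all genes, 0.863% passed as lower and 1.15% as higher. Their differences ran from -0.36 to 0.28 with a median of -0.01. The 2 with the smallest p were Krt73, a keratin of the hair root sheath, at -0.36 ± 0.11 (adjusted p = 0.227) and Krt222 at 0.25 ± 0.09 (adjusted p = 0.339). Only 9 of the 42 lay above the median of all probe sets, compared with 5 of the 7 members. The brightest of them, named after the values were seen, was Krt10, a keratin of differentiated epidermis, at 7.78 in shVector and 7.74 in shPhf19 (means).

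**Figure D3:**
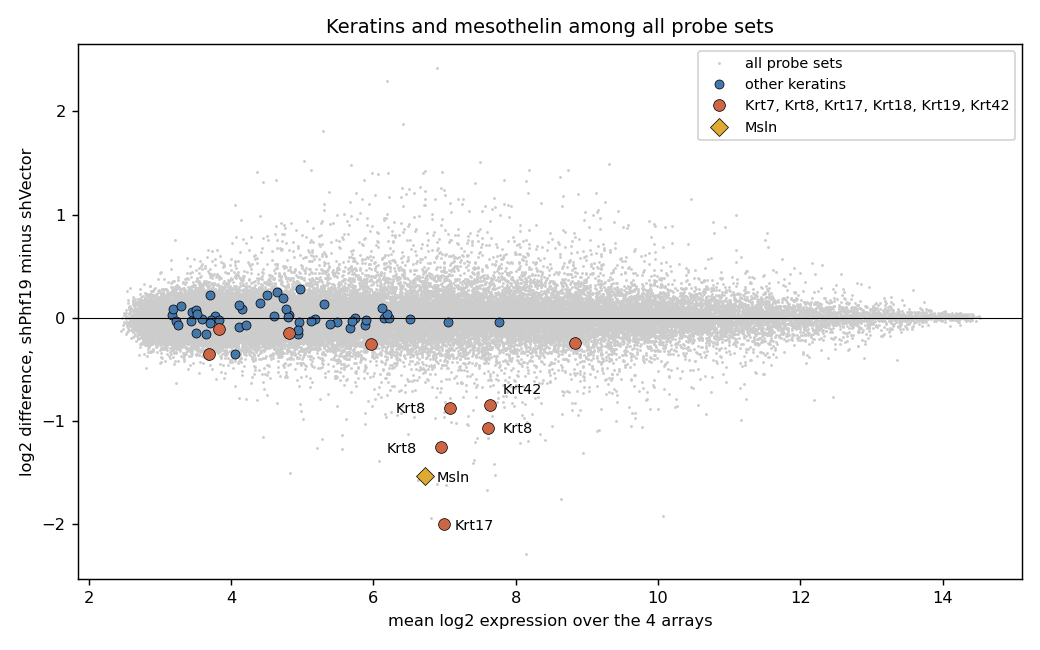
Log2 difference (vertical axis, shPhf19 minus shVector) against mean log2 expression over the 4 arrays (horizontal axis) for all probe sets (grey), the 51 probe sets of other keratins (blue), the keratins described here (red) and Msln (diamond). The other keratins lie between -0.36 and 0.28, mostly left of the median level, and the labelled probe sets are those that passed.

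Genes of other intermediate filaments did not pass either. None of 16 passed (limma, 0 lower and 4 higher at an unadjusted p under 0.05), with a median difference of 0.06. The neurofilament genes Nefh and Nefm had the smallest p, at 0.48 ± 0.10 (adjusted p = 0.106) and 0.54 ± 0.13 (adjusted p = 0.144). Vim, the vimentin gene and named after its value was seen, was bright, at 13.05 in shVector and 13.12 in shPhf19.

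Genes that tie keratin filaments to junctions or to each other fell in part. Of 21 measured, 2 fell, none rose and 19 did not pass, with a median difference of -0.07. Before adjustment, 3 were lower and 0 higher at a limma p under 0.05. Dsp, which encodes desmoplakin, the protein that anchors keratins to desmosomes, read 8.47 and 8.64 in shVector and 7.55 and 7.67 in shPhf19. It fell 1.93-fold (log2 difference -0.95 ± 0.10, adjusted p = 0.0128), and its second probe set 1435493_at passed at -0.95 ± 0.15, while a dim further probe set, 1427610_at, was at -0.09 ± 0.09. Eppk1, which encodes the keratin-binding protein epiplakin, read 8.26 and 8.03 in shVector and 7.41 and 7.33 in shPhf19 and fell 1.71-fold (adjusted p = 0.0269). The desmosomal genes Jup (-0.07 ± 0.09), Pkp2 (-0.05 ± 0.07) and Dsg2 (-0.09 ± 0.05) and the linker gene Plec (-0.16 ± 0.08), named after their values were seen, did not pass. Nor did Pkp3, also picked afterwards, at -0.30 ± 0.11 (limma adjusted p = 0.336).

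Of 27 epithelial junction and surface genes measured, 1 fell, 1 rose and 25 did not pass. At an unadjusted p under 0.05, 8 were lower and 3 higher, and 19 of the 27 differences were below 0, with a median of -0.12. For comparison, 51.0% of the differences of all genes were below 0. Of all 45037 probe sets, dim ones included, 5708 had an unadjusted limma p under 0.05, counting both directions. The like share over genes in each direction was not counted. Cldn4, a tight junction claudin gene, read 8.73 and 8.48 in shVector and 7.67 and 7.60 in shPhf19 and fell 1.96-fold (-0.97 ± 0.10, adjusted p = 0.0147). Cd24a, which encodes a small lipid-anchored surface glycoprotein, read 8.61 and 8.79 in shVector and 9.81 and 9.84 in shPhf19. It rose 2.18-fold (1.13 ± 0.09, adjusted p = 0.00733), and its other 2 probe sets, 1416034_at and 1437502_x_at, passed at 1.10 ± 0.13 and 1.21 ± 0.10. The general epithelial adhesion genes Cdh1 and Epcam, picked afterwards, were bright and did not pass, at -0.20 ± 0.05 (adjusted p = 0.148) and 0.14 ± 0.07 (adjusted p = 0.512).

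Most regulators of the epithelial state did not pass. Of 16 transcription and splicing factor genes 1 fell, Tfap2c, which encodes the AP-2 gamma factor of trophoblast and epidermis. It read 8.42 and 8.37 in shVector and 7.43 and 7.66 in shPhf19, 1.81-fold lower (-0.85 ± 0.10, adjusted p = 0.0177), with its second probe set 1418147_at passing at -0.62 ± 0.09 and another, 1448977_at, at -0.72 ± 0.14 without passing (adjusted p = 0.0838). The median difference of the 16 was -0.06, with 4 lower and 1 higher at an unadjusted p under 0.05. Of 12 mesenchymal genes 2 rose and none fell. Zeb2, a repressor of epithelial genes, read 4.66 and 4.85 in shVector and 5.88 and 5.83 in shPhf19, 2.14-fold higher (limma adjusted p = 0.0103). This probe set lay at the 43.5th percentile of mean level, and the other 4 Zeb2 probe sets did not pass. The matrix protease gene Mmp2 rose 1.63-fold, also with its second probe set, 1416136_at (0.81 ± 0.09). The median difference of that list was -0.05, with 0 lower and 3 higher at an unadjusted p under 0.05.

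Factors of the AP-1 and Ets families, known to act on the human KRT18 gene, were measured as well. Of 15 genes 1 fell, 2 rose and 12 did not pass, with a median difference of -0.05. Before adjustment, 4 were lower and 3 higher at a limma p under 0.05. Fos read 8.87 and 8.94 in shVector and 7.50 and 8.06 in shPhf19, 2.19-fold lower (-1.13 ± 0.17, adjusted p = 0.0396), with the 2 shPhf19 arrays 0.56 apart. Jun rose 1.52-fold (adjusted p = 0.0322), with its dim second probe set 1448694_at at 0.15 ± 0.10, and the Ets factor gene Elk3 rose 1.45-fold (adjusted p = 0.0404), while its other 3 probe sets did not pass.

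**Figure D4:**
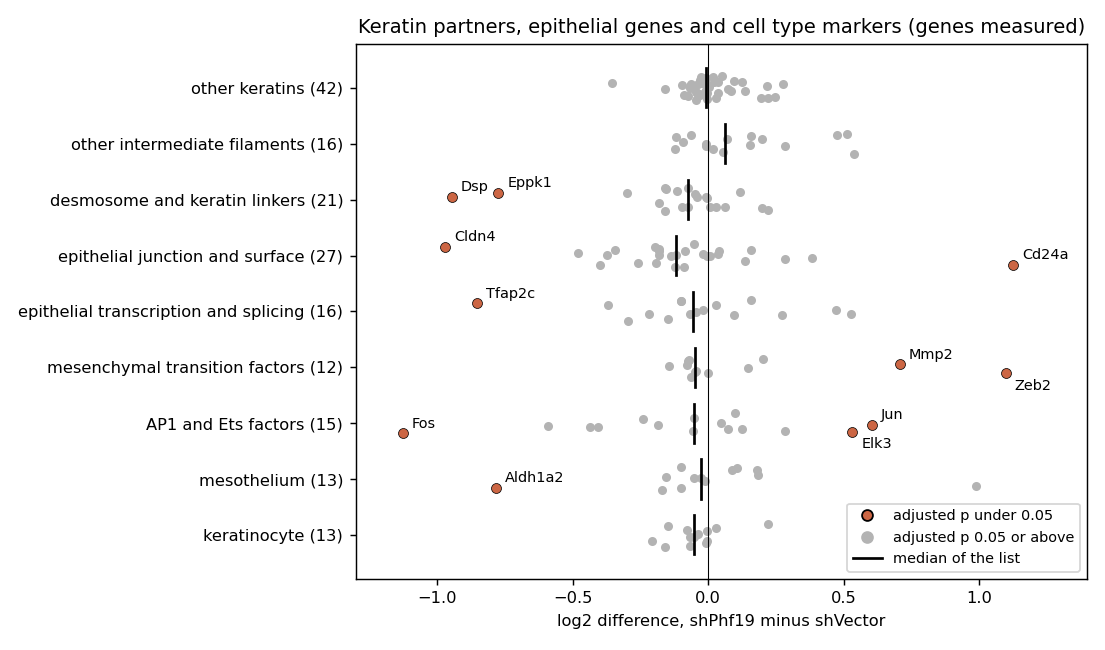
Log2 difference (horizontal axis, shPhf19 minus shVector) of each measured gene of 9 gene lists, by the gene's probe set with the highest mean. Red points had an adjusted p under 0.05, and black bars are list medians. No point in the rows of other keratins, other intermediate filaments or keratinocyte markers is red, and the list medians lie between -0.12 and 0.06. Keratins of the keratinocyte row are also in the row of other keratins.

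Of the marker lists of mesothelium and of keratinocytes, 1 gene passed the test. Of 13 mesothelial genes 1 fell, the retinoic acid synthesis gene Aldh1a2 (1.72-fold, adjusted p = 0.0404), and none rose. Only 5 of the 13 lay above the median of all probe sets, and Aldh1a2 was not among them, at the 42.6th percentile of mean level. The median difference of the 13 was -0.03, with 1 lower and 1 higher at an unadjusted p under 0.05. Wt1, a transcription factor gene of the mesothelium, was at 0.99 ± 0.25 without passing (adjusted p = 0.157), and Muc16, which encodes a binding partner of mesothelin, was at 3.73 in shVector and 3.92 in shPhf19; both were picked afterwards. None of 13 keratinocyte genes passed (limma, 0 at an unadjusted p under 0.05). Sfn was at -0.21 ± 0.10 (adjusted p = 0.504) and Trp63 at -0.15 ± 0.10 (adjusted p = 0.635). This result is not separate from those above. Krt1, Krt5, Krt6a, Krt10, Krt14, Krt15 and Krt16 of this list are among the 42 further keratins, and Trp63 is among the epithelial transcription factors. The mean level of the keratinocyte list was 5.38 and 5.30 on the shVector arrays and 5.27 and 5.32 on the shPhf19 arrays.

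Most endoderm genes that passed the test rose, while Krt8 was lower. Of 17 genes of primitive and parietal endoderm, 6 rose and 1 fell, and the median difference was 0.30. Before adjustment, 1 was lower and 9 higher at a limma p under 0.05. The mean level of the list was 7.02 and 7.06 on the shVector arrays and 7.47 on both shPhf19 arrays. Dab2, an endocytic adaptor gene, rose 2.64-fold, Gata6, a factor that specifies primitive endoderm, 2.28-fold and the receptor gene Pdgfra 2.26-fold, whereas the nidogen gene Nid1, of basement membranes, fell 1.42-fold (adjusted p = 0.00863, 0.0149, 0.0238 and 0.0256). Other probe sets of Dab2, Gata6 and Pdgfra did not pass. Of the other Nid1 probe sets, 1448469_at passed at -0.58 ± 0.09, and the dim 1441519_at, at -0.29 ± 0.10, did not. Of 13 visceral endoderm genes 2 rose and none fell, Cubn (4.91-fold) and Cited1 (1.75-fold). At an unadjusted limma p under 0.05, 0 were lower and 5 higher. A dim second probe set of Cubn, 1426990_at, passed at 1.34 ± 0.12. Cited1 was dim too, at the 38.7th percentile of mean level. The median difference of the 13 was 0.10, and their mean levels were 6.04 and 5.97 in shVector and 6.32 and 6.35 in shPhf19. None of 10 trophectoderm genes passed (limma, 1 lower and 0 higher at an unadjusted p under 0.05; median difference 0.09). Tead4 was at -0.29 ± 0.10 (adjusted p = 0.283) and Ascl2 at 0.24 ± 0.12 (adjusted p = 0.475). None of 10 fibroblast genes passed either (1 lower and 1 higher at an unadjusted p under 0.05; median difference -0.11), with Pdgfrb at -0.68 ± 0.14 (adjusted p = 0.0923) and Thy1 at 0.46 ± 0.12 (adjusted p = 0.169). The part of any of these cell types in the keratin and mesothelin differences was not tested.

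Every call depended on having all 4 arrays. With any 1 array left out (shVector replicate 1 or 2, shPhf19 replicate 1 or 2), limma passed 0 of the 45037 probe sets, with 2539 to 6942 at an unadjusted p under 0.05, while the 11 differences stayed below 0. Their sign could not change, since both shPhf19 arrays lay below both shVector arrays in all 11. Without 1 array, Krt17 probe set 1423227_at ran from -2.07 to -1.94, Msln from -1.68 to -1.40 and the 3 Krt8 probe sets together from -1.36 to -0.82. Probe sets with small differences moved more in proportion: 1439765_x_at of Krt42 was at -0.12 without shVector replicate 1 and at -0.37 without shVector replicate 2, and 1420193_at of Krt17 at -0.24 and -0.46.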

How the data were processed

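RNA of 4 F9 cultures was measured on Affymetrix mouse arrays, per the labels. The table deposited by the authors gives 1 log2 value per probe set and array. The log2 scale was read from the values, which ran from 2.31 to 14.7, and the nearly equal quartiles show that the arrays had been normalized to each other. Which software and background correction were used was not stated in the labels. Of 45101 probe sets, 64 Affymetrix controls were left out. Genes came from GEO's platform annotation (34945 probe sets with 1 gene, 932 with several, 9160 with none), and lists count each of 18193 genes by the brightest probe set annotated to it alone. The test of shPhf19 against shVector was limma 3.58.1 under R 4.3.3 (lmFit, eBayes with an intensity trend, two-sided, Benjamini-Hochberg over all 45037 probe sets, threshold 0.05, 2 residual degrees of freedom). SE is limma's moderated standard error. The number of arrays limits the precision. The members and gene lists were chosen with earlier results of these data known. Genes named from a list are up to 3 passing genes per direction by size, otherwise the 2 with the smallest p; other genes are said to be picked afterwards. Genes of like profile are the 4 nearest to each of 4 members. Alternatives covered the variance trend, normalization, filters on dim probe sets, each array left out, a replicate block and the mean of a gene's probe sets.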

Additional observations from a re-analysis of the deposited data

How the results depend on the processing

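Over 10 alternatives the 11 keratin and mesothelin probe sets gave 105 differences, and 105 of them were below 0. Most of these signs were fixed in advance, so their count is no sign of robustness. Leaving out an array could not turn a sign, since the groups did not overlap in any of the 11. The intensity trend, the filters and the replicate block do not alter a difference. The 6 passing probe sets passed again, all 6 of them, without an intensity trend, with quantile normalization, with median centring and without the lowest 25% or 50% of probe sets; the 2 filters removed 2 and 3 of the 11. Without an intensity trend, the probe sets passing over the whole array went from 262 to 151 (lower) and from 374 to 229 (higher), and the list genes that fell from 7 to 4. With any 1 of the 4 arrays left out, the passing keratin and mesothelin probe sets, the passing probe sets of the array and the passing list genes (7 lower and 13 higher in the complete data) were all 0, that is 0 to 0 in each direction; such a fit has 1 array in a group and takes its spread from the other. No label says that replicate numbers mark a shared day, and same-numbered arrays' deviations correlated at -0.197. With the replicate number as a block, 0 probe sets passed (3890 before adjustment, where the fit of all arrays without a block had 5708), including 0 of the keratin and mesothelin probe sets and 0 list genes, with the lowest adjusted p at 0.203; the block leaves fewer residual degrees of freedom. Dim probe sets such as those of Krt7 and Krt19 limit what can be said of small differences.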

Other observations

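For 4 of the genes, the genes with the most similar profile over the 4 arrays were sought, as the smallest root mean square distance between profiles centred on their own means. Such a profile over 4 arrays mostly carries the size of the group difference. Nearest to Krt17 were Rpl39l (distance 0.161), Serpinf1 (0.17), Serpinb6c (0.254) and Hhip (0.273). Rpl39l, a paralog of a ribosomal protein gene, read 9.40 and 9.18 in shVector and 7.06 and 6.93 in shPhf19. Serpinf1, which encodes a secreted serpin, read 9.69 and 9.36 in shVector and 7.74 and 7.78 in shPhf19.

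Serpinb6c and Serpinf1 were also among the 4 nearest to Msln, at 0.137 and 0.149, after Fetub at 0.0791 and before Gstm2 at 0.207. Fetub, which encodes a protease inhibitor of the fetuin family, read 8.31 and 7.90 in shVector and 6.83 and 6.57 in shPhf19, with the first replicate higher in each group as for Msln. Nearest to Krt8 were P2rx3 (0.0736), As3mt (0.0824), Sult6b1 (0.0825) and Xaf1 (0.0842). P2rx3, an ATP-gated ion channel gene, read 10.26 and 10.08 in shVector and 9.12 and 9.26 in shPhf19. Nearest to Krt18 were Lclat1 (0.00361), Tnfsf8 (0.00389), Clybl (0.00754) and Ankrd33 (0.00954), none of which passed the test, as Krt18 did not.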
